A study of Mus musculus with 17 samples.

Results

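The immediate early AP-1 and Egr genes were read as mRNA in 6 mouse hematopoietic stem and progenitor populations. The members were Fos, Fosb, Jun, Junb, Jund, Egr1, Egr2, Egr3, Ier2 and Nr4a1, and every non-control probe that the array design assigns to one of these names was kept, whatever its level. This gave 13 probes for 10 of the 28090 gene names on the array, with 2 probes each for Junb, Egr3 and Ier2. The cells came from the bone marrow of untreated female C57Bl/6 mice, 6 to 8 weeks old, several mice being pooled for each sample. Marrow was depleted of lineage-positive cells and enriched for c-kit before sorting. Long-term HSCs (LT-HSC), short-term HSCs (ST-HSC) and multipotent progenitors (MPP), together the HSC subsets, were taken in 1 FACS sort. Common myeloid progenitors (CMP), granulocyte-monocyte progenitors (GMP) and megakaryocyte-erythroid progenitors (MEP) were taken in another, so sort and side cannot be told apart. Each population was read on 3 single-color arrays, except LT-HSC with 2, which makes 17 in all, and 1 LT-HSC array held a pool of replicates 2 and 3. The other LT-HSC array and 1 array of each other population carry no replicate number.

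Immediate early genes are transcribed within minutes of a signal such as a growth factor, a cytokine or a stress, from transcription factors already present in the cell, and most of their mRNAs are short-lived. Proteins of the Fos and Jun families pair through leucine zippers to form AP-1, whereas the Egr proteins bind GC-rich sites through zinc fingers. Nr4a1 (Nur77) is an orphan nuclear receptor, and Ier2 encodes a nuclear protein induced with the same kinetics. In the marrow, Egr1 and the Nr4a receptors are known for roles in stem cell quiescence and Junb for restraining myeloid expansion.

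To show the sequences that these genes carry next to their starts, the 250 bases before the start are printed for 4 members, 1 each of the Fos, Jun and Egr families and Nr4a1. RefSeq windows on GRCm38.p6 were listed for 7 of the 10 members, and not for Egr1, Egr3 and Ier2. They lie at chr12:85473640-85473889 (plus strand) for Fos, chr8:84978749-84978998 (minus strand) for Junb, chr10:67537619-67537868 (plus strand) for Egr2, the one with most matches of 5 listed windows, and chr15:101266596-101266845 (plus strand) for Nr4a1. Each runs 5′ to 3′ on the strand of the gene, and capitals mark the matches to the motifs named after them, on either strand.
Fos: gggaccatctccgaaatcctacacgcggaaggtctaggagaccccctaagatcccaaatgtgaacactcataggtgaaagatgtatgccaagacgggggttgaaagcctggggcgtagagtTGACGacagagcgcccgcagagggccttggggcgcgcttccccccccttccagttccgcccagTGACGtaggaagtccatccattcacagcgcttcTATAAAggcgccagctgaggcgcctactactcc
Junb: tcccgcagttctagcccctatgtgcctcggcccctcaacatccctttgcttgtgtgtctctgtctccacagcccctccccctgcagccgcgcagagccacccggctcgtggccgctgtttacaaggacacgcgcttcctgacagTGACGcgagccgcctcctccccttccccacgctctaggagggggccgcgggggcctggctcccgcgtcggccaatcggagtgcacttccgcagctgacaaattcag
Egr2: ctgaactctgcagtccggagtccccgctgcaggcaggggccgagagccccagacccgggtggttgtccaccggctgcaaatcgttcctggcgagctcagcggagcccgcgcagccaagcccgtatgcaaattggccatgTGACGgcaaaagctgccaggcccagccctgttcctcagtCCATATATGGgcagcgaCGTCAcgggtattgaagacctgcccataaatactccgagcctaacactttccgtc
Nr4a1: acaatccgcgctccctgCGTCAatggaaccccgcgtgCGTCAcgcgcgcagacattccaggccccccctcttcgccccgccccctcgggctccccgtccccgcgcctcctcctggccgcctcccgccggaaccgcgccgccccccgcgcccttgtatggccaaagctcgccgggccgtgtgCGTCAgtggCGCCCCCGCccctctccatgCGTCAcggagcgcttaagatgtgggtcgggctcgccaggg
The letters TGACG, the core of the cyclic AMP response element, were found in 5 of the 7 members with a window (Egr2, Fos, Fosb, Junb and Nr4a1), against 19.8% of the 27018 genes with a window, any window of a gene being counted for members and other genes alike. Nr4a1 held 4 such matches and Fos 2, the nearer one 66 to 62 bases before the start. The letters GCGNGGGCG, which Egr proteins bind, were found in Fosb and Nr4a1, against 5.33% of all genes. A CArG box, which serum response factor binds, was found in Egr2 at 72 to 63 bases before the start, and in 1.62% of all genes. The letters TATAAA were found in Fos at 33 to 28 bases before the start, and in 14.3% of all genes. The AP-1 letters TGANTCA were in none of the 7 windows and in 7.82% of all genes. The windows of Jun and Jund, which are not printed, held 0 matches to any of these motifs, so Junb was the only Jun-family member with a match. Matches were counted in the 250 bases before the start, no 2 of these motifs overlapped in the 4 sequences, and none of these matches was tested for binding here.

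The arrays were read in 3 scanning runs on 6 slides. All arrays of run 1 were myeloid, all of run 3 were of HSC subsets, and run 2 was mixed. Run 1 also used another scanner model and another version of the scanner software than runs 2 and 3. No array of HSC subsets was read with that scanner and software, whereas within run 2 both sides were read alike. The part of scanner and software in the differences between the sides was not tested apart from scanning run. The share of spots well above background ran from 41.4% to 70.15% by array. The unnumbered LT-HSC array was dim, its 75th percentile being 53.1 intensity units against at least 243.3 on the other arrays. Of the marker lists, the 6 HSC markers had summed normalized intensities of 11100 to 17600 in the HSC subsets and of 202 to 2650 in the myeloid populations. The 6 GMP markers were highest in GMP, at 613000 to 919000, and the 6 MEP markers in MEP, at 50200 to 64900. The MEP markers were also at 13000 to 21600 in LT-HSC, above the 314 to 779 of MPP. The GMP markers were at 324000 to 530000 in ST-HSC, 67200 to 252000 in LT-HSC, 70500 to 187000 in MPP and 254000 to 546000 in CMP. The 4 mast cell and basophil markers were at 9710 to 10800 in ST-HSC, 635 to 1150 in LT-HSC and 1060 to 3660 in MPP. The 5 mature neutrophil markers, all of them above background in every population, were at 81500 to 186000 in LT-HSC, 48700 to 132000 in ST-HSC, 12300 to 49000 in MPP, 6170 to 18100 in CMP, 10600 to 37900 in GMP and 14500 to 40000 in MEP. The 4 T cell markers were at 567 to 1990 in the HSC subsets and 111 to 700 in the myeloid populations, and each was called higher in the HSC subsets. The 4 B cell markers were at 4200 to 66600 and 1080 to 28700, the 4 mature erythroid markers at 7320 to 23700 and 480 to 58300, and the 5 monocyte and macrophage markers at 38700 to 142000 and 7410 to 89100, in the same order of sides. The part of these cells in the differences between the sides was not tested.

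All 10 genes were higher in the HSC subsets than in the myeloid populations by at least 1 probe, and none was lower. Of the 13 probes, 12 passed the test as higher and 0 as lower (limma, adjusted p under 0.05), against 18.2% of all 41174 probes called higher and 23.1% called lower. With scanning run as a block in the fit 8 of the 12 were called, and Fos, Jun, Egr2 and the second Ier2 probe were not. When each array was instead scaled to its 75th percentile, 64.1% of all called probes were higher in the HSC subsets, in place of 44%, and the median difference over all probes was 0.31 in place of -0.02. The median of the 13 differences was 1.64 on the log2 scale. Against CMP alone, 1 of the 13 was called for ST-HSC, 2 for LT-HSC and 6 for MPP. The shares of all probes called there were 10.3%, 23.4% and 12.1%. Every array of HSC subsets was above every myeloid array for 3 of the 13 probes, both probes of Junb and that of Egr2, against 2.53% of all probes. The remaining probe, the second of Egr3, was well above background in MPP alone. By the F-test over the 6 populations, 12 of the 13 probes were called, against 40.6% of all probes. Because each sample is a bulk of sorted cells, fewer cells that carry a transcript and less transcript per cell cannot be told apart.

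**Figure D1:**
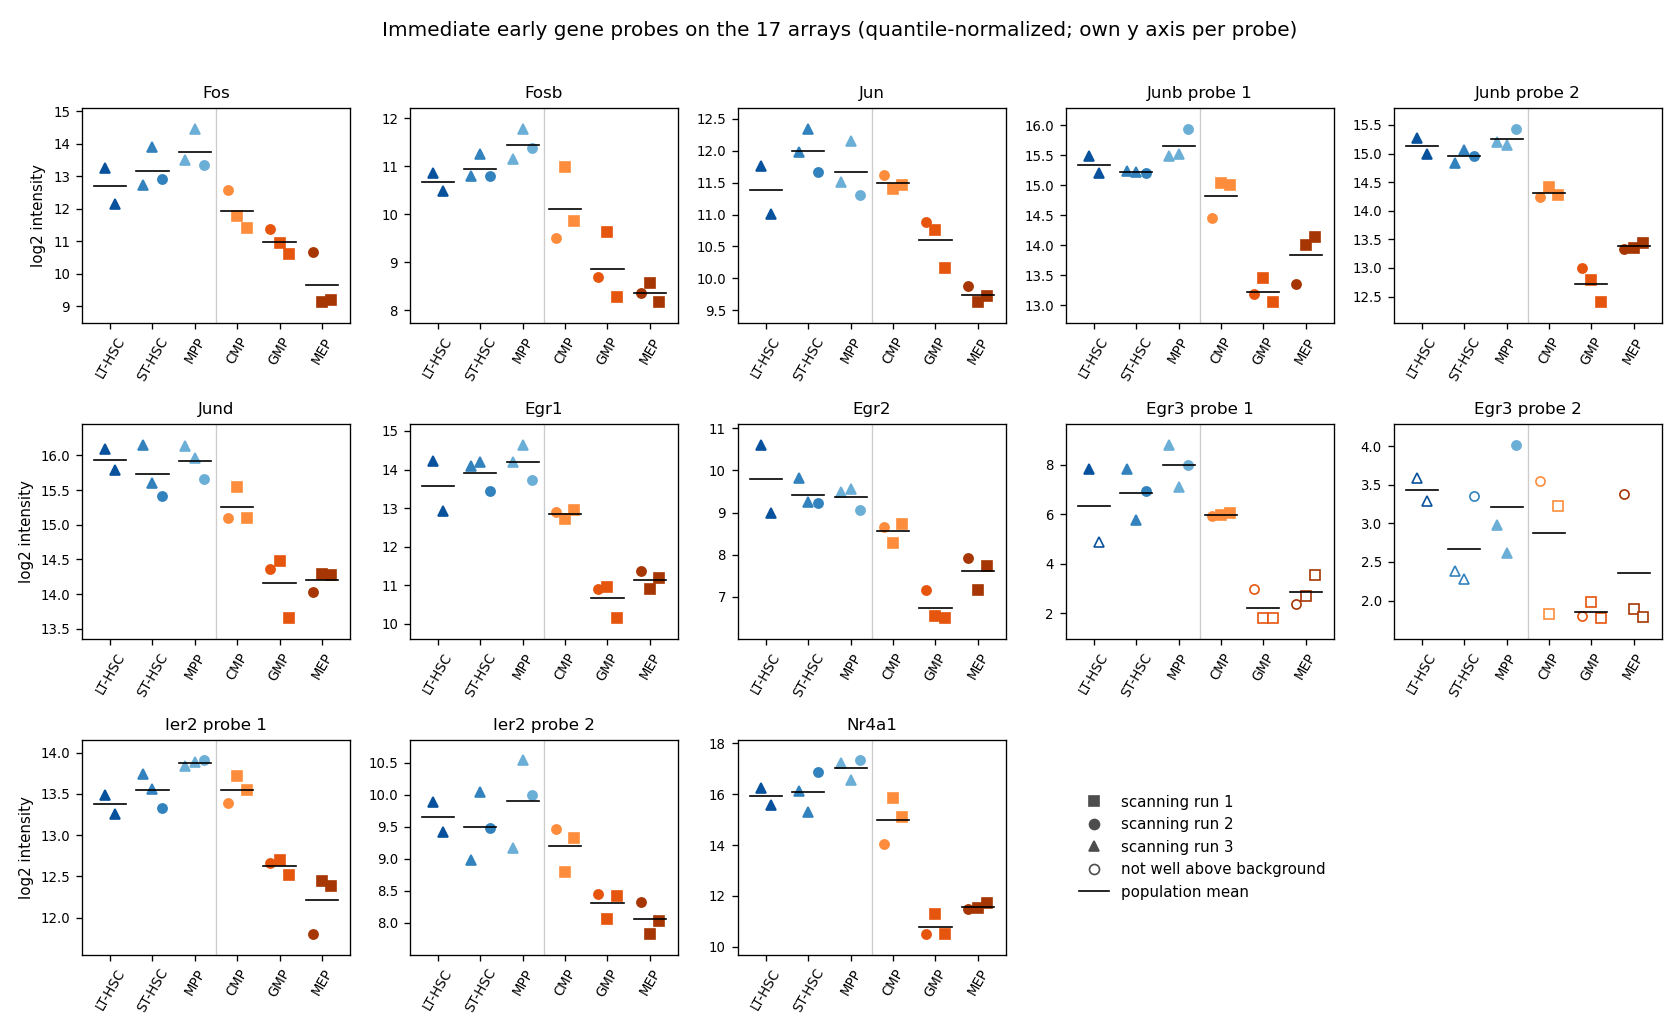
Normalized log2 intensity of each of the 13 probes (y axis, its own scale in each panel) on each of the 17 arrays by population (x axis), with the symbol giving the scanning run, open symbols for spots not well above background and a line for the population mean. For most probes GMP and MEP are the 2 lowest populations, and CMP lies between them and the HSC subsets, as for Egr1 at 12.73 to 12.95 in CMP.

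Fos and Fosb, the 2 genes of the Fos family among the 10 members, were higher in the HSC subsets and had their lowest means in MEP. The Fos probe (chromosome 12 of mm9, 86817900 to 86817959, printed 10 times on each array) was at 12.14 and 13.25 in LT-HSC, 12.72, 12.90 and 13.89 in ST-HSC and 13.33, 13.50 and 14.45 in MPP. It was at 11.41, 11.77 and 12.59 in CMP, 10.62, 10.95 and 11.37 in GMP and 9.12, 9.20 and 10.66 in MEP. The sides overlapped through the dim LT-HSC array, which lay below 1 CMP array, and every GMP and MEP array lay below every other array. Fos was 5.12-fold higher in the HSC subsets, a log2 difference of 2.36 (SE 0.30, adjusted p = 4.06e-05). With scanning run as a block this difference was 1.26 and lost its call (adjusted p = 0.0833). The 10 spots of Fos on 1 array had a median SD of 0.05, and at most 0.09. Fosb (chromosome 7 of mm9, 19888477 to 19888536) was at 10.49 to 11.78 over the 8 arrays of HSC subsets, with a median of 11.01, and at 8.16 to 10.99 over the 9 myeloid arrays, with a median of 8.69. Its log2 difference was 1.90 (SE 0.23, adjusted p = 2.72e-05), and CMP replicate 1, at 10.99, lay among the HSC subsets.

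Of the Jun family, the partners of Fos in AP-1, Junb separated the sides without overlap, while Jun and Jund did not. The 2 Junb probes lie on chromosome 8 of mm9, at 87500881 to 87500940 and 87500843 to 87500902, and share bases, so they are no independent measures. The second was at 14.996 and 15.27 in LT-HSC, 14.83, 14.97 and 15.06 in ST-HSC and 15.14, 15.21 and 15.43 in MPP. In the myeloid populations it was at 14.24, 14.28 and 14.41 in CMP, 12.40, 12.78 and 12.998 in GMP and 13.34, 13.35 and 13.44 in MEP. Every CMP array lay below all arrays of the HSC subsets and above all GMP and MEP arrays, and GMP was lowest. The log2 differences of the 2 probes between the sides were 1.44 (SE 0.14, adjusted p = 4.28e-06) and 1.64 (SE 0.10, adjusted p = 7.27e-08). Jun (chromosome 4 of mm9, 94715864 to 94715923) was at 11.01 to 12.34 in the HSC subsets, median 11.71, and at 9.62 to 11.62 in the myeloid populations, median 10.76. The 3 CMP arrays, at 11.40, 11.46 and 11.62, lay within the range of the HSC subsets, and the MEP arrays, at 9.62, 9.72 and 9.88, were the lowest. Jun was 2.09-fold higher in the HSC subsets (log2 difference 1.07, SE 0.16, adjusted p = 0.000177), and with scanning run as a block its difference was 0.48 and lost the call (adjusted p = 0.287). Jund (chromosome 8 of mm9, 73224436 to 73224495), which most cells express without a signal, was at 15.42 to 16.16 in the HSC subsets and at 13.65 to 15.55 in the myeloid populations. Its log2 difference was 1.32 (SE 0.15, adjusted p = 1.68e-05), with 1 CMP array above 1 ST-HSC array.

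Of the Egr genes, Egr1 was 5.04-fold and Egr2 3.73-fold higher in the HSC subsets, and on all GMP and MEP arrays Egr3 was not well above background. Egr1 was at 12.93 and 14.23 in LT-HSC, 13.44, 14.10 and 14.20 in ST-HSC and 13.72, 14.18 and 14.64 in MPP. It was at 12.73, 12.90 and 12.95 in CMP, 10.15, 10.90 and 10.95 in GMP and 10.90, 11.18 and 11.36 in MEP. The lower LT-HSC value is that of the dim array, which lay beside the CMP arrays. The log2 difference of Egr1 between the sides was 2.33 (SE 0.21, adjusted p = 2.71e-06). With scanning run as a block it was 1.62 and stayed called (limma, adjusted p = 0.0127). Egr2 (chromosome 10 of mm9, 67004758 to 67004817, printed 10 times) was at 8.98 to 10.61 in the HSC subsets, median 9.37, and at 6.50 to 8.73 in the myeloid populations, median 7.72. Its log2 difference was 1.90 (SE 0.22, adjusted p = 1.9e-05), and its 10 spots had a median SD of 0.06 on 1 array. With scanning run as a block the difference of Egr2 was 1.32 and lost its call (adjusted p = 0.0535). The first probe of Egr3 (chromosome 14 of mm9, 70481979 to 70482038) was well above background on 10 arrays, namely 1 of LT-HSC and all 3 each of ST-HSC, MPP and CMP. It was at 5.77, 6.93 and 7.84 in ST-HSC, 7.10, 7.98 and 8.80 in MPP and 5.92, 5.98 and 6.04 in CMP. For GMP and MEP only a bound can be given, set by the lowest signal that was well above background on each array. By this bound the first Egr3 probe was at least 13.2-fold lower in GMP and at least 9.46-fold lower in MEP than in MPP. Against CMP it was at least 3.33-fold lower in GMP and at least 2.39-fold lower in MEP. The fitted log2 difference between the sides, 3.37 (SE 0.43, adjusted p = 3.9e-05), uses the measured values of those dim spots and is no bound. It stayed called but moved with the treatment of the background, to 0.94 with normexp, and was 4.52 with the replicate block. The second probe of Egr3 (70478827 to 70478886) was well above background on 3 arrays, all of MPP, and its log2 difference of 0.75 did not pass the test (SE 0.31, adjusted p = 0.0736). Its bounds against MPP, 0.486-fold in GMP and 0.35-fold in MEP, were under 1 and set no lower limit on a drop. The array design lists a RefSeq mRNA for this probe and another cDNA for the first.

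Nr4a1 showed the largest difference among the probes that were well above background in every population, and the first Ier2 probe the smallest. Nr4a1 (chromosome 15 of mm9, 101105071 to 101105130) was at 15.57 and 16.26 in LT-HSC, 15.30, 16.15 and 16.87 in ST-HSC and 16.56, 17.24 and 17.33 in MPP. It was at 14.05, 15.09 and 15.85 in CMP, 10.51, 10.51 and 11.27 in GMP and 11.47, 11.54 and 11.72 in MEP. The GMP and MEP arrays stood apart from all others, and CMP replicate 1 overlapped the HSC subsets. The log2 difference between the sides was 3.91 (SE 0.27, adjusted p = 3.44e-07), which is 15.02-fold. With scanning run as a block the difference of Nr4a1 was 4.95. The first probe of Ier2 (chromosome 8 of mm9, 87185211 to 87185245) was at 13.26 to 13.91 in the HSC subsets, 13.39 to 13.72 in CMP, 12.52 to 12.70 in GMP and 11.80 to 12.45 in MEP. The log2 differences of the 2 Ier2 probes between the sides were 0.80 (SE 0.11, adjusted p = 6.43e-05) and 1.16 (SE 0.21, adjusted p = 0.000512), the latter being 0.98 and not called with scanning run as a block (adjusted p = 0.144). With the replicate block the difference of the second probe was 0.48 and stayed called (limma, adjusted p = 0.034). The second probe lies at 87183623 to 87183681, away from the first, and both placed CMP above GMP and MEP. Gene models of mm9 were not used here, so the exon under each probe is not given.

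**Figure D2:**
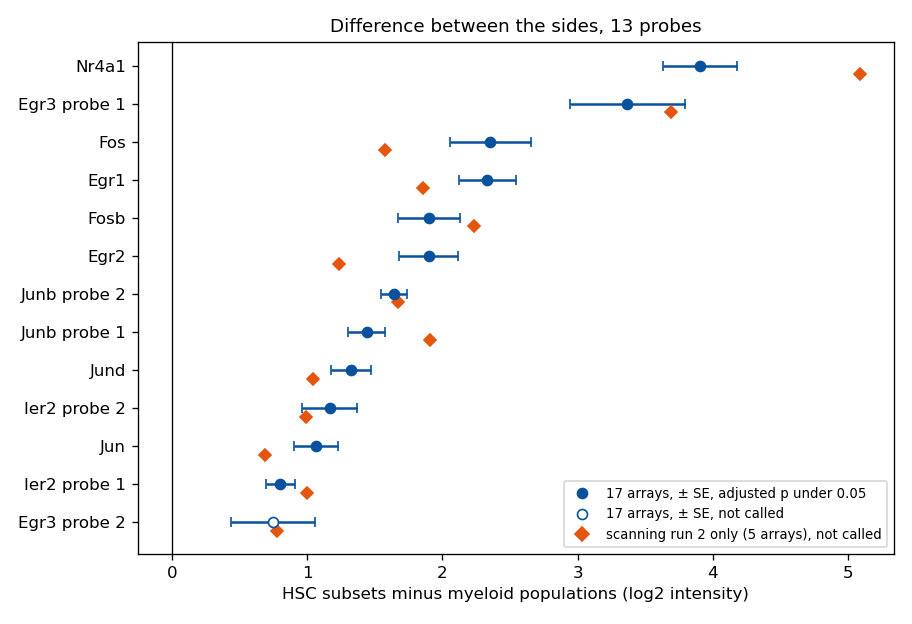
Difference in normalized log2 intensity between HSC subsets and myeloid populations (x axis) for each of the 13 probes (y axis), over all 17 arrays with its SE (circles, filled where called) and within scanning run 2 alone (diamonds, 5 arrays). All values are above 0, from 0.75 for the second Egr3 probe to 3.91 for Nr4a1 over all arrays.

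To ask where along the hierarchy the genes fell, neighbouring populations were compared in the same fit. No member probe was called between LT-HSC and ST-HSC or between ST-HSC and MPP (0 of 13 in each, limma), where 3.34% and 2.02% of all probes were called. The largest of these differences was that of the first Egr3 probe, 1.12 higher in MPP than in ST-HSC (log2, SE 0.71). Between MPP and CMP, which also come from the 2 different sorts, 6 of 13 probes were higher in MPP and 0 lower, against 12.1% of all probes called in either direction. The 6 were Fos, Fosb, both probes of Junb, Egr1 and Nr4a1, with log2 differences from 0.82 to 2.05. MPP and CMP were mostly read in different scanning runs, and with scanning run as a block the count was 3 in place of 6. The count rested on single arrays, at 1 without MPP replicate 2, 2 without MPP replicate 3 or without CMP replicate 2, and 3 without CMP replicate 1. The median difference of the 13 probes from CMP was 0.82 for MPP, 0.64 for ST-HSC and 0.57 for LT-HSC. Between ST-HSC and CMP 1 probe was called, the second of Junb, against 10.3% of all probes, and between LT-HSC and CMP 2 were, that probe and Egr2, against 23.4% of all probes. These calls were all higher in the HSC subset, and in these 2 comparisons members were called no more often than other probes.

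The steps from CMP to GMP and from CMP to MEP lie within the myeloid sort, and both comparisons use the same 3 CMP arrays. CMP was above GMP for 8 of 13 probes and below for 0, against 4.77% of all probes called in either direction. The log2 differences were 4.23 for Nr4a1 (SE 0.46, adjusted p = 0.00013), 2.19 for Egr1 (SE 0.35, adjusted p = 0.00223) and 1.81 for Egr2 (SE 0.36, adjusted p = 0.0104). They were 1.60 and 1.58 for Junb, 1.09 for Jund and 0.92 for the first Ier2 probe, and the first Egr3 probe, for which GMP has only a bound, was also called. Fos, with 0.94 (SE 0.50, adjusted p = 0.543), Fosb, with 1.25 (SE 0.38, adjusted p = 0.0979), and Jun, with 0.89 (SE 0.27, adjusted p = 0.0989), were not called in this step. In place of 8, the calls of this step were 10 with slide as a random block and 9 with scanning run as a block. They were 7 under scaling to the 75th percentile, with normexp or in the authors' own log2 values. CMP was above MEP for 11 of 13 probes and below for 0, against 16.7% of all probes. Here Fos, Fosb and Jun were called, with log2 differences of 2.27 (SE 0.50, adjusted p = 0.006), 1.75 (SE 0.38, adjusted p = 0.00558) and 1.76 (SE 0.27, adjusted p = 0.000456), and Nr4a1 differed by 3.42 (SE 0.46, adjusted p = 0.000128). Egr2, with 0.95 (SE 0.36, adjusted p = 0.105), was not called. The 5 monocyte and macrophage markers had summed intensities of 26400 to 31700 in CMP and 50500 to 89100 in GMP, where the members were lower, and of 7410 to 22500 in MEP. The 4 mast cell and basophil markers were at 1350 to 2470 in CMP, 33800 to 51400 in GMP and 223 to 874 in MEP. The part of such cells in these steps was not tested.

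Between GMP and MEP 2 of 13 probes were called, against 17.4% of all probes, so in this fit members were called no more often than other probes. With scanning run, slide or the replicate number as a block 4 were called, and no share of all probes is given for those fits. Jun was higher in GMP by 0.86 on the log2 scale (SE 0.27, adjusted p = 0.0448), and the second Junb probe was lower in GMP by 0.65 (difference -0.65, SE 0.16, adjusted p = 0.0112). The Jun call was lost when any 1 of 10 arrays was left out, namely ST-HSC replicate 2, MPP replicate 2, GMP replicate 1, the unnumbered GMP array and every CMP and MEP array, and under scaling to the 75th percentile. The Junb call was lost without GMP replicate 2. The means of Fos, Fosb and both Ier2 probes were higher in GMP, by 1.32, 0.50, 0.42 and 0.24. Those of Egr1, Egr2 and Nr4a1 were lower in GMP, with differences of -0.48, -0.87 and -0.82, and none of these 7 passed the test. The Fos difference was called when scanning run, slide or the replicate number was added to the fit as a block. Of the 6 populations MEP had the lowest mean for 4 genes, Fos, Fosb, Jun and Ier2, and GMP for Junb, Jund, Egr1, Egr2 and Nr4a1, while Egr3 was not well above background in either.

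**Figure D3:**
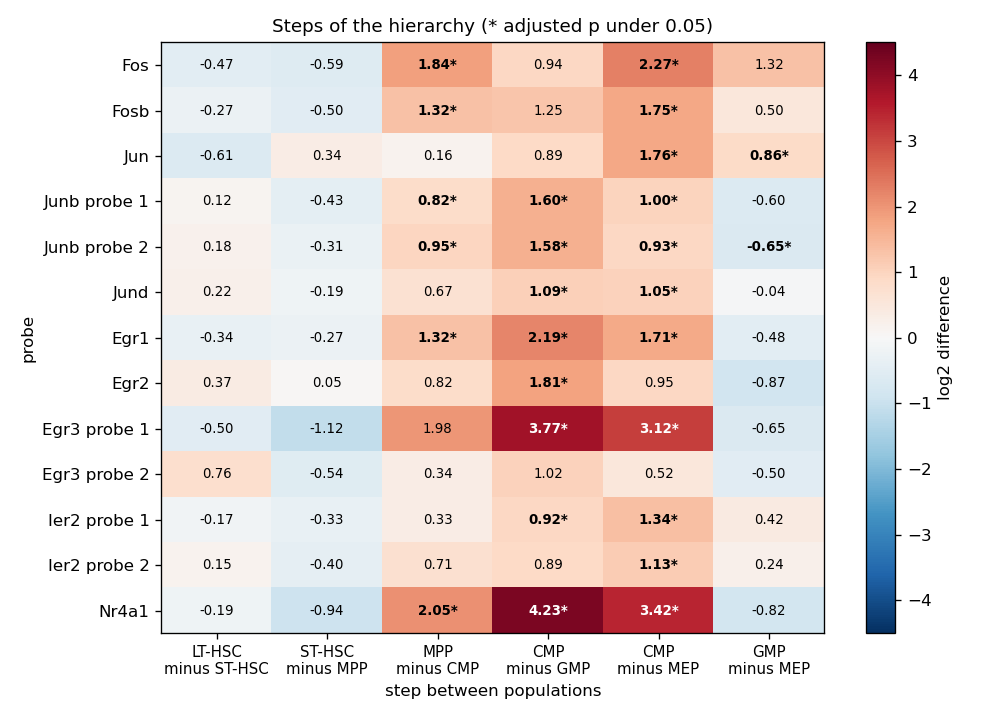
Log2 difference between neighbouring populations (columns, the first named minus the second) for each of the 13 probes (rows), in color and as a number, with an asterisk where the adjusted p was under 0.05. The 2 columns within the HSC subsets hold no call, and the columns from CMP to GMP and from CMP to MEP hold 8 and 11.

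CMP, GMP and MEP arrays shared slides, so the steps could also be read within a slide, where scanning run and slide are the same. On the 3 slides with both, CMP was above GMP on every slide for 12 of the 13 probes, against 18.9% of all probes. On the 2 slides with both, CMP was above MEP on each for 12, against 27.1% of all probes. Nr4a1 was above GMP in CMP by 4.58, 4.58 and 3.55 on the 3 slides, Egr1 by 2.80, 1.77 and 2.00, and Fos by 0.80, 0.82 and 1.22. GMP was above MEP on both slides for 5 probes and below on both for 5, against 27.3% and 44% of all probes. On the 1 slide with an MPP array and a CMP array, MPP was higher for 12 of 13 probes, against 51.9% of all probes, by 3.28 for Nr4a1 and 0.74 for Fos, and Jun was lower by 0.32 (difference -0.32).

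Scanning run 2 held 1 array of every population but LT-HSC, and within it all 13 probes were higher in the HSC subsets. Both HSC arrays were above all 3 myeloid arrays for 10 of the 13, against 12.6% of all probes. The log2 difference was 5.09 for Nr4a1, 2.23 for Fosb, 1.86 for Egr1, 1.58 for Fos and 0.69 for Jun. With 5 arrays limma called 0 of all probes, members included, and 7 member probes and 5018 of all probes had an unadjusted p under 0.05.

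The members' patterns over the arrays were also set beside each other, which in part restates the difference between the sides. Over the 17 arrays, which share populations, runs and slides, the median Pearson r of a member with the other 9 was between 0.82 and 0.93, with 1 probe a gene. After the population means were taken out, the medians were between -0.0047 for Fos and 0.44 for Jund. Of other genes with a probe above background on at least 9 arrays, the 3 most like Fos in pattern were Dusp1 (r = 0.98 over 17 arrays), a phosphatase of MAP kinases, Zfp286 and Fbxl20. Those most like Egr1 were Cd200 (r = 0.97), Casp2 and Sla2, and those most like Jun were Rgs18 (r = 0.95), Trpc6 and AI504432. Those most like Nr4a1 were Socs3 (r = 0.98), an inhibitor of cytokine signaling, Smad7 and Ier5. These are descriptions over 22593 probes searched.

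The other genes of the pathway were read as 4 lists, with 1 probe a gene, the brightest. Over all 28090 genes, 21.7% were higher in the HSC subsets and 19% lower, with a median difference of 0.04. Of 26 other immediate early genes, 17 were higher in the HSC subsets, 0 were lower and 9 did not pass the test, with a median difference of 1.39. The 3 with the largest fitted differences were Egr4 (2.57, SE 0.22), the fourth Egr gene, Klf4 (2.47, SE 0.08), a zinc finger factor, and Arc (2.35, SE 0.19), which is best known from neurons. Klf4 was well above background on every array. Egr4 was so on 14 of the 17 arrays and Arc on 11, with none of GMP or MEP, so the rank of these 2 is not fixed, and with normexp their differences were 1.20 and 0.82. By its bound Arc was at least 5.73-fold lower in GMP and at least 4.12-fold lower in MEP than in MPP. Nr4a2, a close relative of Nr4a1, differed by 1.75 (SE 0.28), and by 2.94 with scanning run as a block. Nr4a3 was well above background on 3 arrays and was not called. It was called in 4 of 25 alternatives, among them the 75th percentile, scanning run as a block and the replicate block. Nr4a2 and Nr4a3 are named here after their values were seen.

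Of the 10 AP-1 partners, which pair with Fos or Jun proteins or compete with them, 5 were higher in the HSC subsets, 1 was lower and 4 did not pass the test. Fosl2, a Fos-family member, had a log2 difference of 2.50 (SE 0.38), Maff, a small Maf protein, of 2.19 (SE 0.23), and Jdp2, a repressor of AP-1, of 1.65 (SE 0.19). Fosl2 was not well above background on any MEP array, where it was at least 12.1-fold lower than in MPP by the bound, and its difference between the sides was 0.998 with normexp. Mafg, another small Maf protein, was lower in the HSC subsets, with a difference of -1.59 (SE 0.22), which was -0.51 with scanning run as a block. The call of Atf2 is uncertain, since 3 of its 6 probes were called in the opposite direction. Of the 19 upstream regulators and Egr feedback genes, 10 were higher, 4 were lower and 5 did not pass the test. Both corepressors of Egr proteins were higher in the HSC subsets, Nab2 with a fitted difference of 3.28 (SE 0.42) and Nab1 by 1.39 (SE 0.17), as was Elk3, an Ets factor that acts with serum response factor, by 1.89 (SE 0.13). With scanning run as a block these differences were 3.80, 0.74 and 1.49. Nab2 was well above background on 13 arrays and none of MEP, where it was at least 11-fold lower than in MPP by the bound, and its difference between the sides was 1.45 with normexp. Lower were the kinases Rps6ka1 (difference -0.90, SE 0.17), Mapk3 (-0.89, SE 0.19) and Mapk9 (-0.60, SE 0.11). With scanning run as a block the first 2 were not called, with differences of -0.07 and 1e-04. Srf itself differed by -0.09 (SE 0.08, not called).

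Of 12 heat shock genes, read because they answer to stress by another route, 4 were higher in the HSC subsets, 4 were lower and 4 did not pass the test, with a median difference of 0.20. The inducible Hspa1a was higher by 1.99 (SE 0.35), Hspb1 by 0.96 (SE 0.23) and Dnajb1 by 0.86 (SE 0.10). With scanning run as a block these differences were 3.34, 1.59 and 0.74. The mitochondrial chaperone Hspd1 was lower, with a difference of -0.58 (SE 0.15), as were Hsph1 (-0.40, SE 0.12) and the constitutive Hspa8 (-0.48, SE 0.12). Hspb1 was well above background on 13 arrays and none of GMP, where it was at least 1.2-fold lower than in MPP by the bound. Its difference was 0.28 with normexp, 1.68 with the 75th percentile and 0.08, not called, with the replicate block. Hspa8 and Hsph1 were not called with scanning run as a block. Hspb1, Hspa8 and Hsph1 were each called in 23 of 25 alternatives.

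**Figure D4:**
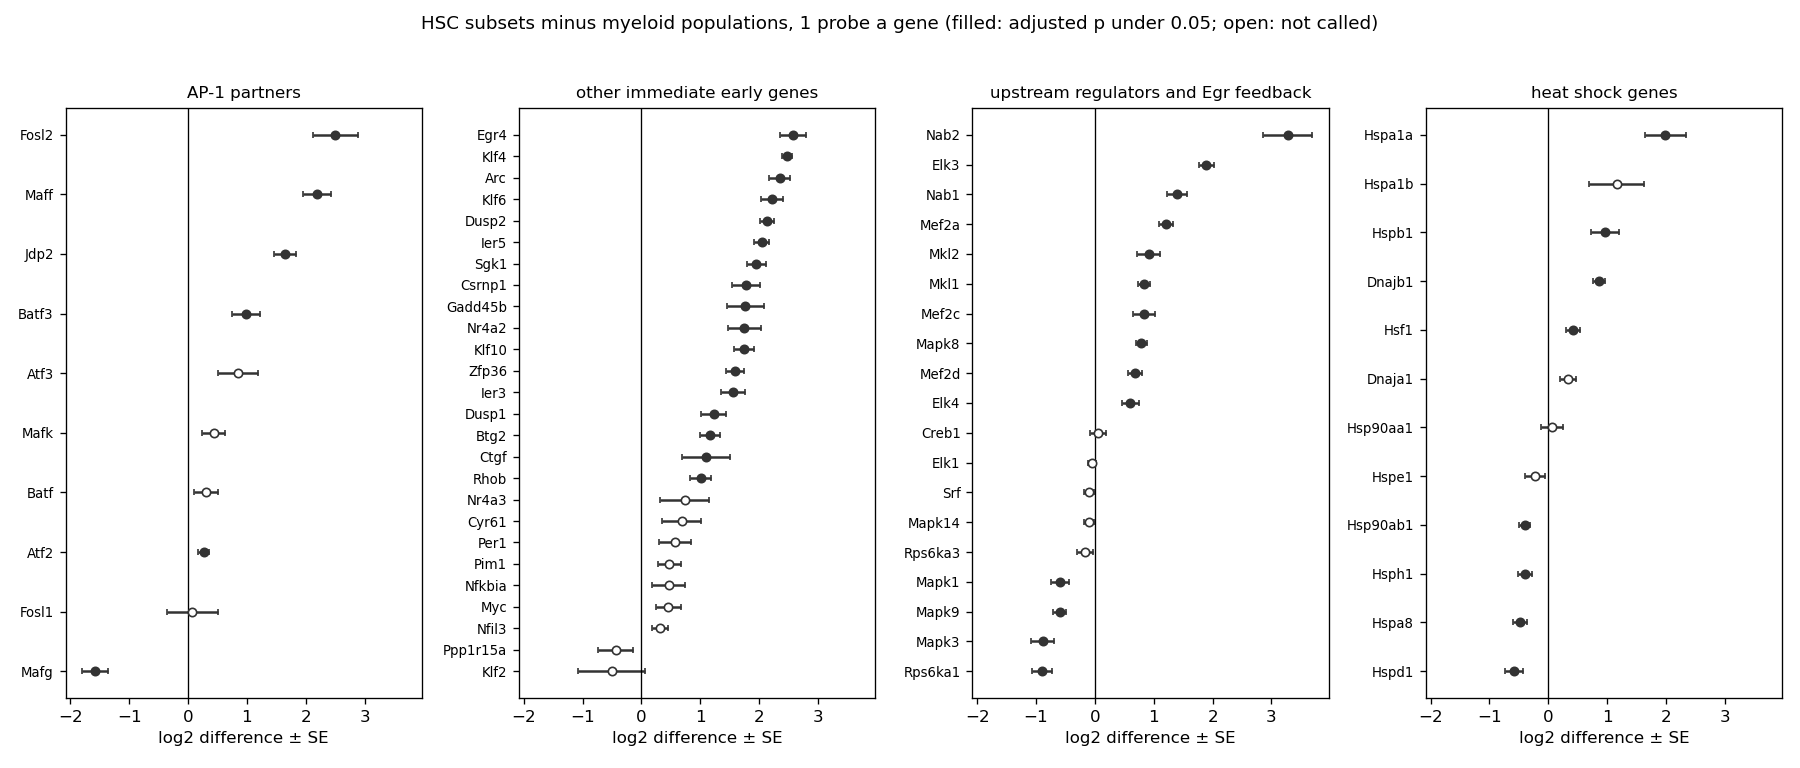
Log2 difference between HSC subsets and myeloid populations with its SE (x axis) for each gene of the 4 lists (y axis), filled where the adjusted p was under 0.05. Among the 26 other immediate early genes 17 filled points lie above 0 and 0 below, and among the 12 heat shock genes 4 lie on each side.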

How the data were processed

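The mRNA of 6 sorted populations was read on 17 single-color Agilent arrays. For every array the authors deposited scanner intensities, background-corrected by the scanner software but without normalization across arrays. A second deposited table, of log2 values, was used as an alternative. Its row numbers were found to follow the order of the scanner rows, its column medians were 6.395 to 6.418, and its background handling is not given in the sources used here.

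The log2 intensities of all spots were quantile normalized together in limma 3.58.1 under R 4.3.3, after the study's methods. The 1639 control spots and spots with an outlier mark were then left out, which left 161 probe values missing, and spots of a probe were averaged to 41174 probes. A model with 1 mean per population was fitted by lmFit and eBayes, and p-values were adjusted by Benjamini-Hochberg over all probes at 0.05. The fit was tested on simulated data. For Egr3, Arc, Fosl2, Nab2 and Hspb1, a bound is given in populations with no array well above background.

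The members and lists were chosen with earlier results of these data known, and values within slides, the motifs and the alternatives of the lists were added after the data were seen. The named genes are all members, the 3 largest differences each way among called genes of each list, and the 3 genes most like Fos, Egr1, Jun and Nr4a1, with exceptions named. Alternatives changed the scaling (75th percentile), the background (normexp, offset 50), the values (the authors' table), the dim-probe filter (well above background on at least 3 arrays) or the model (blocks for scanning run, for slide as random, or for replicate number), or left out both arrays of LT-HSC or 1 array at a time. Mice were pooled for each sample, per the study's methods, and p-values measure only the spread between these samples. The number of arrays limits the precision. The exon under a probe was not determined.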

Additional observations from a re-analysis of the deposited data

How the results depend on the processing

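For the 13 differences between HSC subsets and myeloid populations, no alternative turned a direction. Of the values, 319 stayed on their side of the threshold, 16 lost the call and 3 gained it. The 3 gains were all of the second Egr3 probe. Of the 16 losses, 12 were in scanning run 2 alone, with 5 arrays, and 4 came with scanning run as a block. The number of probes called higher was 8 with that block, 0 in scanning run 2 alone and 12 or 13 under the other alternatives. Over all probes, 2826 were called higher and 3144 lower with scanning run as a block, and 4847 and 6988 with slide as a random block, in place of 7478 and 9528. The number of member probes was 12 with the replicate block, a fit of the numbered arrays alone. The replicate numbers were not taken to pair the samples, since only 2 of 4 correlations of replicate differences were over 0.1, at 0.0758 for CMP and GMP, 0.0556 for GMP and MEP, 0.1499 for CMP and MEP and 0.1798 for ST-HSC and MPP, although numbered myeloid arrays of 1 number shared a slide. The replicate block, like slide as a random block and scanning run as a block, gave 4 calls between GMP and MEP in place of 2. Fos, higher in GMP, was among them in each, and Jun was not among those of the replicate block. Between MPP and CMP, scanning run as a block gave 3 in place of 6. With each array left out in turn, the counts ran from 1 to 7 between MPP and CMP and from 1 to 3 between GMP and MEP. The difference of the first Egr3 probe ran from 0.94 to 4.52. In the lists, Mapk3 turned to 1e-04 with scanning run as a block and Srf to 0.0742 with the replicate block, neither called. Heat shock genes called lower were 1 in place of 4 with scanning run as a block, and other immediate early genes called lower 1 in place of 0 with the replicate block. The cause of these changes was not tested. The level of Egr3 in GMP and MEP, and of its second probe outside MPP, is limited by signal over background.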
